A study of Mus musculus with 4 samples.

Results

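The genes described here are those of cholesterol and fatty acid synthesis that are under the control of the sterol regulatory element binding proteins (SREBPs). They were chosen by name: a list of 34 genes, of which 33 had at least 1 probe set naming that gene alone, out of 18193 genes named in this way on the array. Acat2, an enzyme that makes acetoacetyl-CoA, is not analysed here. All 33 members lay above the detection floor on all 4 arrays (a linear signal of 77.0, the 50th percentile of all values), so none was lost to the filter on low values. The 34 members are 5 genes of the SREBP system, 8 of the mevalonate steps (7 without Acat2), 11 of the steps between squalene and cholesterol, 1 sterol carrier, 3 of fatty acid synthesis and 6 of fatty acid desaturation and elongation.

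RNA came from mouse embryonic fibroblasts (MEFs), which are fibroblasts cultured from C57BL/6 embryos. FAN -/- cells lack FAN, an adaptor protein of the TNF receptor that is encoded by Nsmaf, and FAN +/+ cells are wild type. The 4 groups, with 1 array each, were FAN -/- cells given 50 ng/ml tumour necrosis factor (TNF) for 16 h after 8 h without serum, FAN -/- cells kept 24 h without serum, FAN +/+ cells given TNF in the same way, and FAN +/+ cells kept 24 h without serum. No group had serum at any time in this period. The labels do not give the number of embryos, the passage or the deleted part of the gene, so a difference between the genotypes cannot be told apart from one between cell preparations.

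SREBPs are transcription factors that are made as membrane proteins of the endoplasmic reticulum. SCAP escorts them to the Golgi, where they are cut and released, and the INSIG proteins hold SCAP back when sterols are plentiful. Freed SREBPs go to the nucleus and raise the transcription of the enzymes that make cholesterol (mainly SREBP2, from Srebf2) and fatty acids (mainly SREBP1, from Srebf1), and Insig1 is itself a target. Fibroblasts without serum receive little cholesterol from lipoproteins and rely on this synthesis.

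With 1 array per condition, a pairwise difference cannot be set against replicate spread and carries no p-value, and "higher" and "lower" describe these arrays only. A gene "fell" or "rose" where limma, with additive terms for genotype and TNF over the 4 arrays, gave a Benjamini-Hochberg adjusted p under 0.05 over 11817 genes. In that fit each genotype has 2 arrays, 1 per treatment. Its 1 residual degree of freedom is the difference between the TNF responses of the 2 genotypes. limma moderates that residual variance towards the variance of all genes. The p-values therefore hold for these 4 arrays only and measure no spread between replicate cultures of a condition. In RNA from whole cultures, fewer cells of a type and less RNA per cell cannot be told apart. Linear signals below are 2 to the power of the deposited log2 value.

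Median log2 values of the arrays lay between 6.21 and 6.3, and the median signal of the hybridisation spikes was 593 to 622 on the FAN -/- arrays and 676 to 737 on the FAN +/+ arrays. Nsmaf had signals of 179 with TNF and 239.8 untreated in FAN -/- cells, against 376 with TNF and 496 untreated in FAN +/+ cells. This goes with the titles, by which the arrays were grouped. The genotype entry of 2 samples differs from their titles: it calls the TNF-treated FAN +/+ sample a knockout and the untreated FAN -/- sample wild type. Of 10 fibroblast markers, 10 lay above the floor on all arrays, with summed signals of 84352 to 97278 in FAN -/- cells and 112398 to 112707 in FAN +/+ cells. Such a sum is set mostly by the brightest markers, and the dimmer Lum, Dcn and Pdgfra fell in FAN -/- cells (values below). Ptprc, Cd68, Adgre1, Itgam and Tyrobp of 9 leukocyte markers, and Adipoq and Cidec of 6 adipocyte markers measured, were at the floor on all arrays. The other leukocyte markers, Csf1r, Lyz2, Cd14 and Fcer1g, lay above it on all arrays. With floor values included, the 9 summed to 1305 with TNF and 1755 untreated in FAN -/- cells, against 1423 with TNF and 1006 untreated in FAN +/+ cells.

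The sequences upstream of 4 of the 5 members that fell in FAN -/- cells (Fdps is the other) are shown first, together with that of Hmgcs1, whose window was the only one among the members to hold the sterol regulatory element core as searched (TCACNCCAC, on either strand). They are RefSeq sequences of build GRCm38.p6, 200 bases up to the annotated start of the gene, all on the plus strand and 5′ to 3′. Capitals mark the sterol regulatory element core, the CCAAT box (CCAAT or its reverse complement, the letters bound by NF-Y, a partner of SREBPs) and the E-box CACGTG. Srebf2 is at chr15:82147069-82147268, Insig1 at chr5:28071212-28071411, Idi1 at chr13:8885406-8885605, Elovl6 at chr3:129532186-129532385 and Hmgcs1 at chr13:119690151-119690350.
Srebf2: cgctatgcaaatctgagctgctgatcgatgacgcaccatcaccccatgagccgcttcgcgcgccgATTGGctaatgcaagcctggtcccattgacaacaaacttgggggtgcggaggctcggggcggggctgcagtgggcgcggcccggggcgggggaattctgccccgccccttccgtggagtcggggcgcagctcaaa
Insig1: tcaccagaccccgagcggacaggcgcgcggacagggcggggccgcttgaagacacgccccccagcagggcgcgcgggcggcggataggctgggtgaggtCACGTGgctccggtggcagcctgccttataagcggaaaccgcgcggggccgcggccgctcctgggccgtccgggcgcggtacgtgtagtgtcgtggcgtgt
Idi1: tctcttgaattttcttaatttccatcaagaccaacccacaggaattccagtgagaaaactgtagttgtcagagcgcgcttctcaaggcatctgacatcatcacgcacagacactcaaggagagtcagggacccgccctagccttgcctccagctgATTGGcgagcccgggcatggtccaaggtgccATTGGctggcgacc
Elovl6: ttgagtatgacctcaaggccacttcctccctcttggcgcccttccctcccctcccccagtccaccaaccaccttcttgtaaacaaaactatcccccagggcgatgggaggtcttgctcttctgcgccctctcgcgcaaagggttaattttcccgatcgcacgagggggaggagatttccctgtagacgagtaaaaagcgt
Hmgcs1: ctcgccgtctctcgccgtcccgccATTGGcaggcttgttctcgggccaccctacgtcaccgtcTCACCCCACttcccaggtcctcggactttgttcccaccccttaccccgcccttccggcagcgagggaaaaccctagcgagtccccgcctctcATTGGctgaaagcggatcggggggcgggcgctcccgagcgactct

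Over windows of 250 bases before to 50 after the start, 27 of the 34 genes of the list were in the table, with 35 windows. A CCAAT box was in 23 of these windows (65.7%), and in 37.2% of the 12641 windows of genes above the floor. The E-box was in 7 member windows (20.0%), against 9.61% of those windows. The GC box GGGCGG, a letter string bound by Sp1, was in 25 (71.4%), against 61.15%. The sterol regulatory element core was in 1 member window (2.86%), against 1.15%. A shorter form of that core, CACCCCAC, was in 2 (5.71%), against 3.23%. These were the windows of Acat2 and of Hmgcs1, where it lies within the longer core. Such a match describes letters and shows no binding, and sites with letters other than these were not searched.

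The comparison between genotypes asks how the set differs without FAN. Most members were lower in FAN -/- cells, in both treatments. Both FAN -/- arrays lay below both FAN +/+ arrays for 24 of 33 members, where 23.3% of the 12224 genes above the floor did so, and above them for 1 member, Scap (23.1% of all genes). The difference was below 0 with TNF for 30 members (45.2% of all genes) and untreated for 28 (53.6%). The median difference was -0.36 log2 with TNF, where that of all genes was 0.01, and -0.41 untreated, where that of all genes was -0.03. By size, 11 members were at least 1.5-fold lower with TNF (6% of all genes) and 7 untreated (7.39%), and 5 were so in both treatments (3.71%). After quantile normalization 4 were 1.5-fold lower untreated (773 of 12206 genes) and 3 in both treatments, and with median-centred arrays 8 in both. All genes were not counted in both treatments under these 2 settings. None was 1.5-fold higher, with TNF (4.47% of all genes) or untreated (4.42%). At least 2-fold lower were 3 with TNF (2.64%) and 1 untreated (2.89%), and the untreated share is near that of all genes. The untreated median differed with the probe sets used: it was -0.19 with the mean of all probe sets of a gene. That mean takes in probe sets under the floor: of 45 other member probe sets, 29 lay above it on all arrays.

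**Figure D1:**
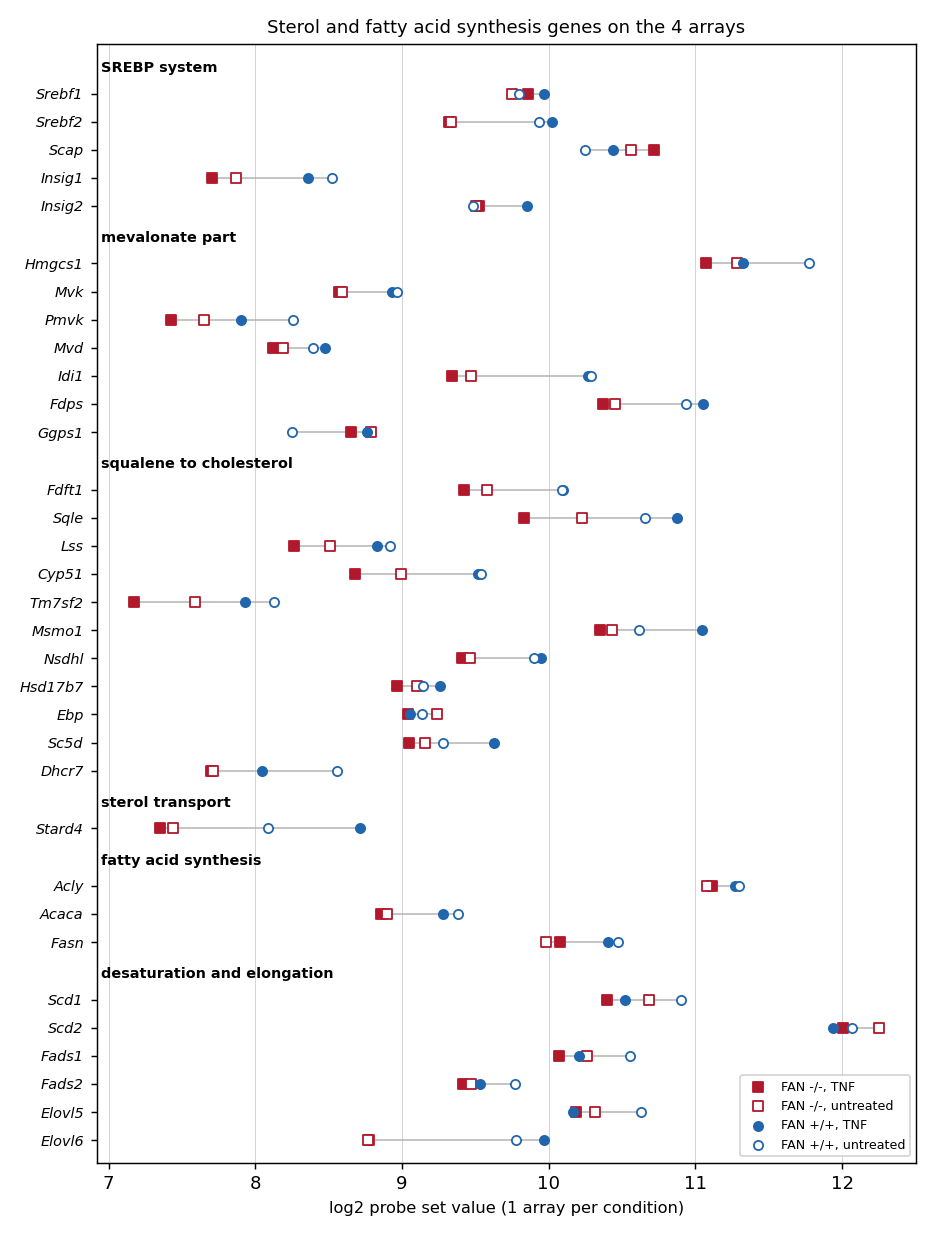
Log2 probe set values of the 33 members on the 4 arrays (squares, FAN -/-; circles, FAN +/+; filled, TNF; open, untreated), with members in rows grouped by role and a grey line over the range of each. For 24 members both squares lie left of both circles, and for Scap both lie right.

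In the additive fit 5 of 33 members fell in FAN -/- cells (3.67% of all genes tested) and 0 rose (2.94%). At an unadjusted p under 0.05, 19 members were lower (13.3% of all genes) and 1, Scap, was higher (11.2%). The 5 were Elovl6, Idi1, Srebf2, Fdps and Insig1. Their calls rest on 1 residual degree of freedom and on 3.52 prior ones taken from all genes. For Insig1 the residual SD was 5.1e-05 log2 and the moderated SD 0.113, so its p-value comes almost wholly from other genes. The calls also depend on the model and filter: 0 members fell without the TNF term (6 of 11817 genes fell) or with all genes, dim ones included (0 of 18193). With a floor at the 30th percentile 3 members fell, among 390 of 14836 genes, and with median-centred arrays 17 fell, among 980 of 11799 genes.

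**Figure D2:**
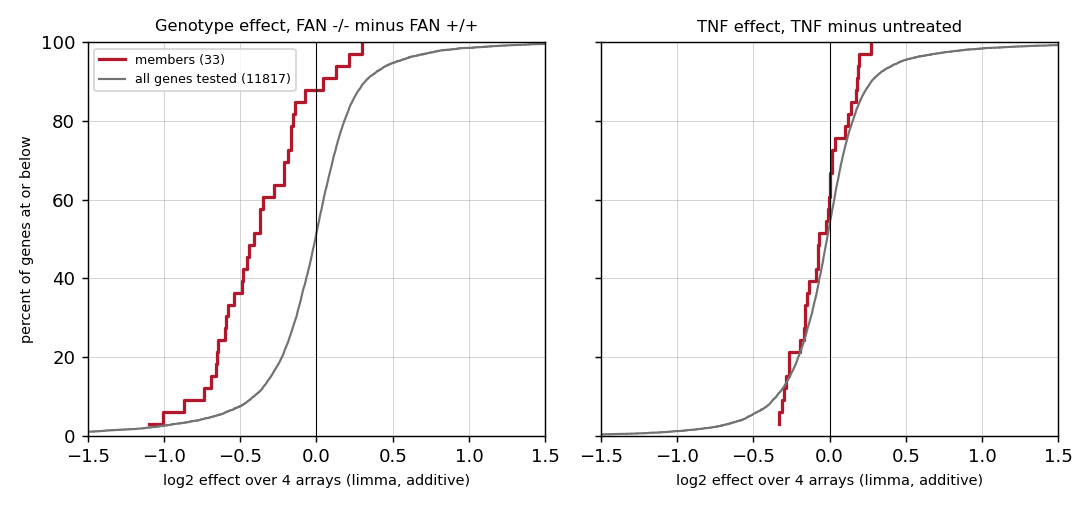
Cumulative share (percent of genes at or below each value) of the additive limma effects in log2 units, for the 33 members and all 11817 genes tested. The curve of the members lies left of that of all genes for genotype (left panel), and all their TNF effects (right panel) lie between -0.33 and 0.27.

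Among the regulators, the genes for SREBP2 and for one of its INSIG brakes fell, and the other 3 genes did not pass. Srebf2 had signals of 638 with TNF and 646 untreated in FAN -/- cells, against 1042 with TNF and 976 untreated in FAN +/+ cells, and fell by 0.65 ± 0.10 log2 (SE, limma, adjusted p = 0.040). The genotypes did not overlap, and its second probe set was lower by a like amount, at -0.86 log2 with TNF and -0.62 untreated. Insig1 fell by 0.66 ± 0.11 log2 (limma, adjusted p = 0.048), with signals of 208 with TNF and 233 untreated in FAN -/- cells, against 329 with TNF and 368 untreated in FAN +/+ cells. Srebf1, whose product favours fatty acid genes, differed little, with signals of 928 with TNF and 861 untreated in FAN -/- cells, against 999.8 with TNF and 888 untreated in FAN +/+ cells. Scap, the escort, was 1.22-fold higher with TNF and 1.24-fold higher untreated (0.30 ± 0.09 log2, limma, adjusted p = 0.15). Insig2 was 1.25-fold lower with TNF and 1.01-fold higher untreated, so its arrays overlapped. A further probe set of Insig2, above the floor on all arrays, was 0.51 log2 higher in untreated FAN -/- cells.

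The mevalonate steps build isoprenoid units from acetyl-CoA. In 6 of the 7 genes both FAN -/- arrays lay below both FAN +/+ arrays, and the median difference was -0.36 log2 with TNF and -0.49 untreated. Idi1, isopentenyl diphosphate isomerase, had the largest difference here, with signals of 649.5 with TNF and 710.4 untreated in FAN -/- cells, against 1235 with TNF and 1250.4 untreated in FAN +/+ cells. It fell by 0.87 ± 0.10 log2 (SE, limma, adjusted p = 0.022). Its second probe set gave -0.80 with TNF and -0.45 untreated. Fdps, which makes farnesyl diphosphate, had signals of 1326 with TNF and 1399 untreated in FAN -/- cells, against 2119 with TNF and 1963 untreated in FAN +/+ cells, and fell by 0.58 ± 0.10 log2 (limma, adjusted p = 0.046). Pmvk, phosphomevalonate kinase, was 1.39-fold lower with TNF and 1.52-fold lower untreated, with signals of 172 with TNF and 201 untreated in FAN -/- cells, against 239.5 with TNF and 306 untreated in FAN +/+ cells. It did not pass the test (adjusted p = 0.073 in limma).

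Hmgcs1, HMG-CoA synthase and the entry to the path, was 1.19-fold lower with TNF and 1.40-fold lower untreated. Its other probe sets above the floor on all arrays were lower too, by 0.22 to 0.46 log2 with TNF and by 0.02 to 0.38 log2 untreated. The kinase gene Mvk was 1.29-fold lower with TNF and 1.30-fold lower untreated, and the decarboxylase gene Mvd was 1.28-fold lower with TNF and 1.15-fold lower untreated. Ggps1, which leads away from sterols to geranylgeranyl diphosphate, stood apart: by its main probe set it was 1.08-fold lower with TNF and 1.45-fold higher untreated. Its other probe sets above the floor on all arrays had the same signs. Untreated they were higher by 0.05 to 0.16 log2 only, against 0.54 for the main one.

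The steps between squalene and cholesterol had 11 members, and both FAN -/- arrays lay below both FAN +/+ arrays in 10 of them, Ebp being the exception. The median difference was -0.58 log2 with TNF and -0.43 untreated, and all 11 were below 0 with TNF. With quantile-normalised arrays 17 of the 18 sterol enzyme genes (mevalonate and squalene steps together) were below 0 with TNF, in place of 18. Sqle, squalene epoxidase and a rate-limiting enzyme, had signals of 910 with TNF and 1196 untreated in FAN -/- cells, against 1877 with TNF and 1611 untreated in FAN +/+ cells. It was 2.06-fold lower with TNF and 1.35-fold lower untreated, and the additive effect of -0.74 ± 0.17 log2 did not pass (limma, adjusted p = 0.087). Cyp51, which removes a methyl group from lanosterol, had signals of 409.7 with TNF and 509 untreated in FAN -/- cells, against 735 with TNF and 742 untreated in FAN +/+ cells. The gap of Cyp51 was 1.79-fold with TNF and 1.46-fold untreated (adjusted p = 0.054 in limma), and its second probe set gave -1.10 log2 with TNF and -0.46 untreated.

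Fdft1, squalene synthase and the branch point towards sterols, had signals of 685 with TNF and 765 untreated in FAN -/- cells, against 1096 with TNF and 1089.6 untreated in FAN +/+ cells, a gap of 1.5996-fold with TNF and 1.42-fold untreated (adjusted p = 0.051 in limma). Tm7sf2, a sterol reductase, had signals of 144 with TNF and 193 untreated in FAN -/- cells, against 244 with TNF and 280.1 untreated in FAN +/+ cells. It was 1.69-fold lower with TNF and 1.45-fold lower untreated (adjusted p = 0.057 in limma). These 2 genes therefore showed like gaps in both treatments, just outside the threshold. Msmo1, the methylsterol monooxygenase, differed mainly with TNF: its signals were 1307 with TNF and 1378 untreated in FAN -/- cells, against 2116 with TNF and 1567 untreated in FAN +/+ cells. Dhcr7, the reductase that forms cholesterol itself, differed mainly without TNF, with signals of 207 with TNF and 209.9 untreated in FAN -/- cells, against 264 with TNF and 377 untreated in FAN +/+ cells. Its gap was 1.27-fold with TNF and 1.797-fold untreated, and it had a single probe set. Lss, Nsdhl, Hsd17b7, Ebp and Sc5d stayed under 1.5-fold, at 1.01-fold lower with TNF for Ebp up to 1.496-fold for Sc5d.

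Stard4, a cytosolic sterol carrier, had the largest gap of the 33 members with TNF. Its signals were 163 with TNF and 174 untreated in FAN -/- cells, against 420.1 with TNF and 272 untreated in FAN +/+ cells. It was 2.57-fold lower with TNF and 1.57-fold lower untreated, and its other 2 probe sets gave -1.43 and -1.21 log2 with TNF and -0.77 and -0.71 untreated, the one with the wider gap being above the floor on 2 arrays only. The additive effect was -1.01 ± 0.20 log2 and did not pass (limma, adjusted p = 0.066).

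The 9 fatty acid genes had a smaller median difference than the 18 sterol enzyme genes. It was -0.13 log2 with TNF and -0.30 untreated, against -0.55 with TNF and -0.43 untreated. For Acly, Acaca and Fasn alone the median was -0.33 with TNF and -0.49 untreated, so untreated these 3 did not differ less. Both FAN -/- arrays lay below both FAN +/+ arrays for 5 of the 9. Elovl6, which elongates saturated and monounsaturated fatty acids, had signals of 438 with TNF and 436 untreated in FAN -/- cells, against 1002 with TNF and 876 untreated in FAN +/+ cells. It was at least 2-fold lower in both treatments, the only one of the 33 members to be so (1.46% of all genes), and fell by 1.10 ± 0.11 log2 (limma, adjusted p = 0.019). The untreated gap, 2.01-fold, lay at the threshold: it was -0.98 log2 with a pseudocount of 16 in place of the floor, -0.92 after quantile normalization and -0.61 with the mean of all probe sets, and 0 members were then 2-fold lower untreated. A second probe set above the floor gave -1.23 log2 with TNF and -1.07 untreated. A further one, counted in that mean, lay under the floor on all arrays. The makers of palmitate lay between: Acaca, acetyl-CoA carboxylase, was 1.34-fold lower with TNF and 1.40-fold lower untreated, and Fasn, fatty acid synthase, was 1.25-fold lower with TNF and 1.40-fold lower untreated. Acly, which makes cytosolic acetyl-CoA, was 1.11-fold lower with TNF and 1.17-fold lower untreated. The desaturase genes Scd1, Scd2, Fads1 and Fads2 and the elongase gene Elovl5 ranged from 1.10-fold lower to 1.05-fold higher with TNF and from 1.24-fold lower to 1.13-fold higher untreated. Of these 5, Scd2 was higher in FAN -/- cells in both treatments.

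**Figure D3:**
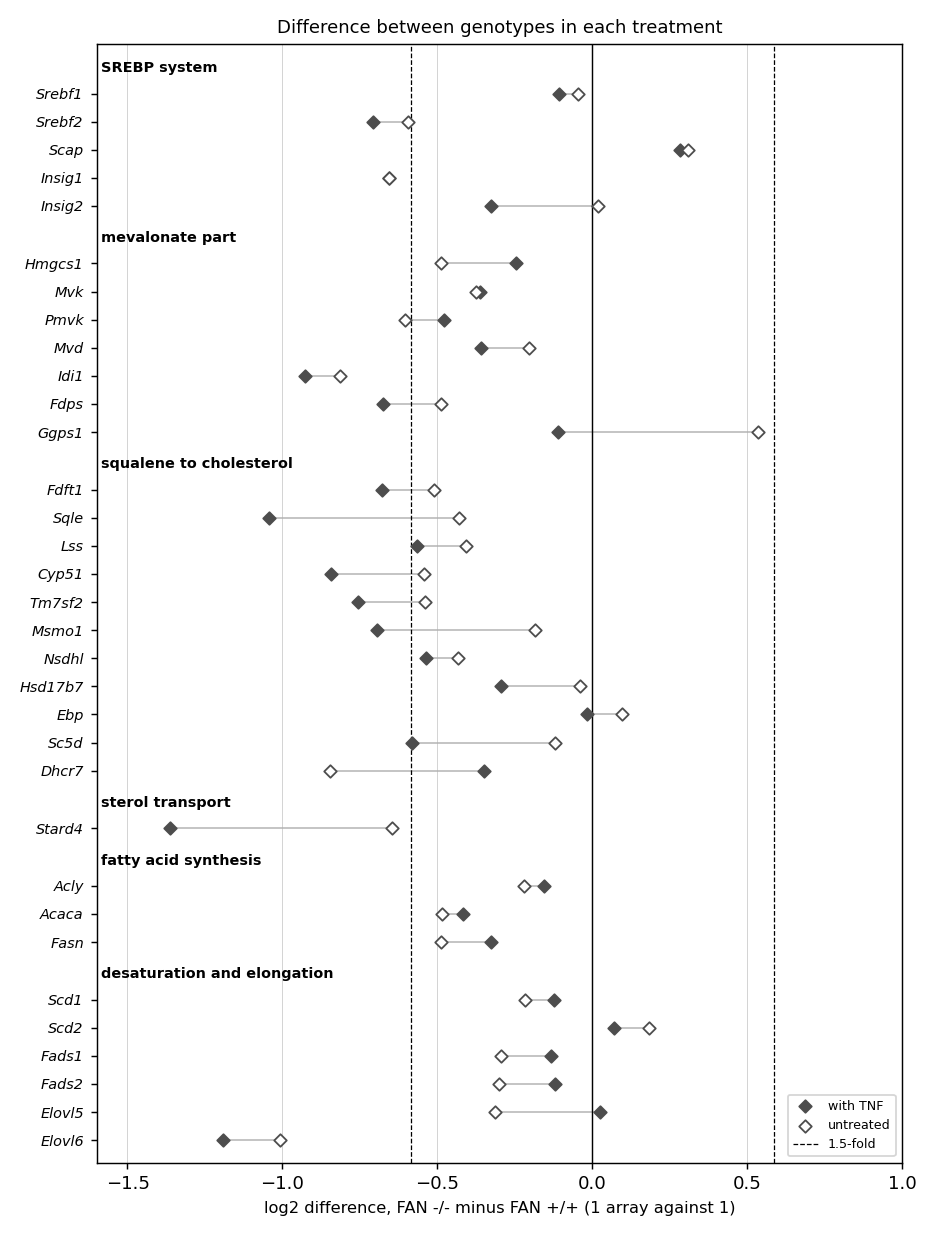
Log2 difference, FAN -/- minus FAN +/+, for each member with TNF (filled) and untreated (open), 1 array against 1, with dashed lines at 1.5-fold. With TNF 11 members lie at or beyond the lower line, and untreated 7 do; none reaches the upper one.

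Across the 33 members the genotype difference with TNF and that untreated, which share no array, correlated at r = 0.70 (Spearman rho 0.71), and across all 12224 genes above the floor at 0.74 (0.62). These are correlations across genes, which are not replicates. Among 29 other member probe sets above the floor on all arrays, from 19 genes, 26 were lower in FAN -/- cells with TNF and 21 untreated. At least 1 of them had the other sign than the main probe set, in either treatment, for 6 members: Fads1, Fads2, Hsd17b7, Insig2, Sc5d and Scd2.

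Markers of dividing cells moved with genotype as well. Of 8 names 7 were measured, with summed signals of 2596 with TNF and 2489 untreated in FAN -/- cells, against 4376 with TNF and 5845 untreated in FAN +/+ cells. In limma 6 of the 7 fell in FAN -/- cells (3.67% of all genes tested). The median difference of these markers was -0.98 log2 with TNF and -1.54 untreated. The signals of the hybridisation spikes, given above, were also lower on the FAN -/- arrays. Of 6 adipocyte markers, 4 lay above the floor on at least 1 array. With floor values of 77.0 included, the 6 summed to 493 with TNF and 571 untreated in FAN -/- cells. In FAN +/+ cells they summed to 818 with TNF and 1369 untreated. Fabp4 and Plin4 were lower in FAN -/- cells in both treatments. Lpl was at the floor with TNF in both genotypes and 1.02-fold higher untreated. In limma 3 of 10 fibroblast markers fell in FAN -/- cells, Lum, Dcn and Pdgfra. With TNF they were 62.7-, 4.37- and 3.48-fold lower, and untreated 15.7-, 2.21- and 2.70-fold lower. Cartilage markers, 3 of 4 above the floor and Acan at it on all arrays, summed to 542 with TNF and 680.0 untreated in FAN -/- cells, against 1664 with TNF and 3168 untreated in FAN +/+ cells. Of 3 cartilage markers tested in limma, 2 fell, Comp and Col2a1, and the median difference of the list was -1.38 log2 with TNF and -1.56 untreated. Not all lists were lower in FAN -/- cells. The 4 smooth muscle markers were higher there in both treatments, with a median difference of 0.28 log2 with TNF and 0.27 untreated. The 4 leukocyte markers above the floor had a median difference of -0.07 log2 with TNF and 0.81 untreated. The part of these marker differences in the members' difference was not tested.

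Few of these genes were 1.5-fold or more from their untreated level with TNF. The shares of all genes were small too, so these counts do not set the members apart. In FAN -/- cells 0 members were 1.5-fold higher (3.19% of all genes) and 0 lower (3.1%). In FAN +/+ cells 1 was 1.5-fold higher, Stard4 (4.75%), and 0 lower (6.5%). At least 2-fold higher were 0 in FAN -/- cells (1.35%) and 0 in FAN +/+ cells (2.2%), and at least 2-fold lower 0 (1.07%) and 0 (1.92%). The additive fit gave 0 members that rose (1.57% of all genes) and 0 that fell (1.14%). At an unadjusted p under 0.05, 0 were higher (8.2%) and 3 lower (10.6%), namely Hmgcs1, Scd1 and Fads1, each by its main probe set. Over all genes the fit gave 186 that rose and 135 that fell, 57.9% of the calls being higher, and 405 and 518 with median-centred arrays, 43.9% being higher. The median response of the members was -0.11 log2 in FAN -/- cells, where that of all genes was 0.01, and -0.02 in FAN +/+ cells, where that of all genes was -0.03. The FAN +/+ median has no settled sign, being 0.07 with the mean of all probe sets.

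The responses differed by role. In FAN -/- cells all 18 sterol enzyme genes were slightly lower with TNF, by 0.02 to 0.42 log2, and 27 of 33 members were below 0 (46.3% of all genes). With the floor at the 70th percentile 15 of the 18 were below 0. The furthest were Tm7sf2, 1.34-fold lower, and Sqle, 1.31-fold lower. In FAN +/+ cells the sterol enzyme genes went both ways, 9 below 0 and 9 above (18 of 33 members below 0, 55.3% of all genes), between -0.52 for Dhcr7 and 0.51 for Ggps1. Below 0 in FAN +/+ cells were 5 of the 18 with the mean of all probe sets, 6 after quantile normalization and 11 with median-centred arrays. Hmgcs1 was 1.37-fold lower there by its main probe set (-0.45 log2) and Msmo1 1.35-fold higher. The other probe sets of Hmgcs1 above the floor on all arrays gave 0.10, -0.12 and -0.16 log2 in FAN +/+ cells.

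The fatty acid desaturases and the elongase Elovl5 were lower with TNF in both genotypes. Both TNF arrays lay below both untreated arrays for Scd1, Scd2, Fads1, Elovl5 and the sterol isomerase gene Ebp, 5 of 33 members (18.9% of all genes), so the count is not above that of all genes. Scd1 had signals of 1351 with TNF and 1645 untreated in FAN -/- cells, and 1471 with TNF and 1913 untreated in FAN +/+ cells (-0.33 ± 0.09 log2, limma, adjusted p = 0.17). Elovl5 was 1.09-fold lower in FAN -/- and 1.38-fold lower in FAN +/+ cells. Both TNF arrays lay above both untreated ones for 2 members, Srebf1 and Insig2 (17.7% of all genes). Srebf1 was 1.08-fold higher with TNF in FAN -/- and 1.12-fold higher in FAN +/+ cells.

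**Figure D4:**
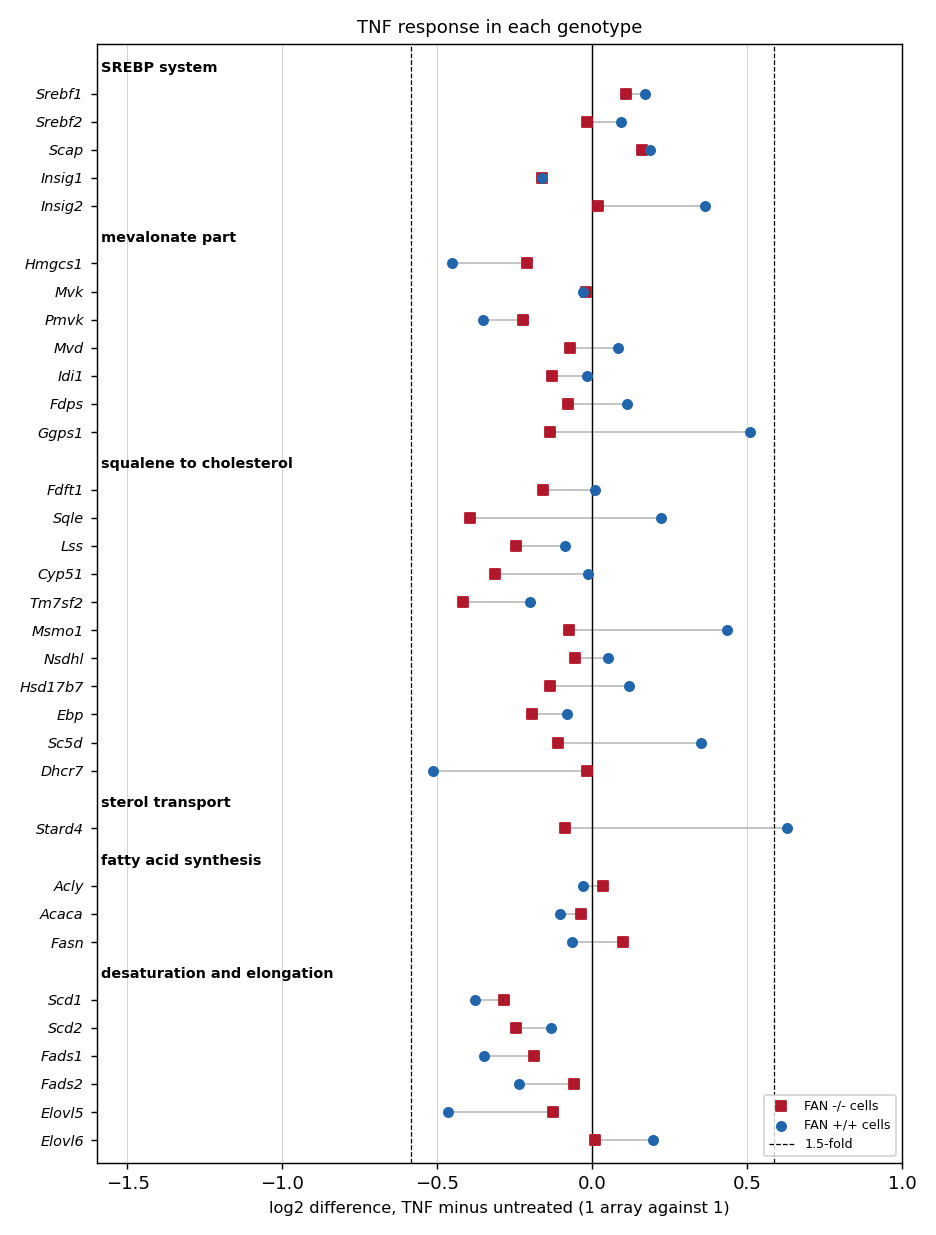
Log2 difference, TNF minus untreated, for each member in FAN -/- cells (squares) and FAN +/+ cells (circles), 1 array against 1, with dashed lines at 1.5-fold. The circle of Stard4 is the only point beyond a dashed line, and the squares of the sterol enzyme genes all lie left of 0.

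The TNF response was lower in FAN -/- than in FAN +/+ cells for 22 of 33 members (40% of all genes), with a median difference of -0.11 log2 where that of all genes was 0.05. It was at least 1.5-fold lower for 3 members, Stard4, Ggps1 and Sqle (2.83% of all genes), and for 0 at least 1.5-fold higher (3.63%). At 2-fold, 0 were lower (0.818%) and 0 higher (0.794%). The response was above 0 in FAN +/+ and below 0 in FAN -/- cells for 11 members (11.1% of all genes). For the 11 genes of the squalene steps the median difference of responses was -0.22 log2, and for the 9 fatty acid genes it was 0.09. No degree of freedom is left to test a difference of responses. It is made of the same 4 arrays as the genotype differences, so it restates the wider gap with TNF seen for Stard4, Sqle, Msmo1 and Sc5d.

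Other genes of SREBP control and lipid handling came from a list of 58 names, of which 45 were measured, 41 above the floor. The median difference between genotypes was -0.19 log2 with TNF and -0.11 untreated, and no test set it against that of the 33 members. With TNF 2 were at least 1.5-fold lower (6% of all genes) and 4 at least 1.5-fold higher (4.47%), namely Vldlr, Lpin1, Prkaa2 and Mylip. Untreated, 1 was 1.5-fold lower (7.39%) and 0 higher (4.42%). In limma 1 of 40 tested fell in FAN -/- cells (3.67% of all genes) and 0 rose (2.94%). None passed for TNF, where 1.57% of all genes rose and 1.14% fell. These counts are near the shares of all genes. The one that fell was Elovl7, an elongase of the same family as Elovl6, with signals of 77.0 (the floor) with TNF and 91.7 untreated in FAN -/- cells, against 173 with TNF and 208 untreated in FAN +/+ cells (-1.17 ± 0.10 log2, adjusted p = 0.013). Vldlr, a lipoprotein receptor, was 2.46-fold higher with TNF and 1.48-fold higher untreated in FAN -/- cells. With TNF, Mylip, which targets lipoprotein receptors for degradation, was 1.65-fold lower in FAN -/- and 2.54-fold lower in FAN +/+ cells, and Acsl4, an acyl-CoA synthetase, was 1.71-fold higher in FAN -/- and 2.09-fold higher in FAN +/+ cells. The other 13 names are not analysed here.

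Ch25h makes an oxysterol that, in cells, binds INSIG and holds back SREBPs. Its signal was 3235 with TNF and 227 untreated in FAN -/- cells, and 5104 with TNF and 232 untreated in FAN +/+ cells (4.15 ± 0.18 log2 for TNF, limma, adjusted p = 0.0078). On the same arrays 0 of the 33 members passed for TNF, where 1.57% of all genes rose and 1.14% fell. Of the 18 sterol enzyme genes, 18 were below 0 with TNF in FAN -/- cells (46.3% of all genes). In FAN +/+ cells 9 were, near the share of all genes (55.3%). A link between Ch25h and these genes was not tested. Abca1, a cholesterol exporter, had signals of 3696 with TNF and 3430.5 untreated in FAN -/- cells, against 2737 with TNF and 2158 untreated in FAN +/+ cells.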

How the data were processed

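Total RNA of 4 MEF samples was hybridised to Affymetrix mouse arrays with 45101 probe sets. The authors deposited 1 value per probe set and array on a log2 scale, as judged from the range. MAS5 is named, per the submitters' processing notes; background, summary and scaling steps are not given in the sources used here, so compression of low values is unknown. Probe sets were named by the platform annotation, and 34945 name 1 gene; 34741 of them matched the RefSeq gene table (GRCm38.p6). Each gene takes the probe set with the highest mean over the arrays. Values under the 50th percentile of all values were raised to it. Single arrays were compared by log2 difference, in classes of 1.5-fold and 2-fold. limma 3.58.1 in R 4.3.3 fitted genotype and TNF additively (lmFit, eBayes with intensity trend, 1 residual and 3.52 prior degrees of freedom) to 11817 genes that exceeded the floor on 2 or more arrays. The fit was checked on simulated data. Array values are given for members at least 1.5-fold apart in any pair, or named for their role. Members, lists and rules were chosen with earlier results of these data known. Alternatives were other floors, a pseudocount of 16, centring, quantile normalization, other probe sets, filters and models.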

Additional observations from a re-analysis of the deposited data

Results flagged for a closer look

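For 3 members the TNF response, by the main probe set, ran in opposite directions in the genotypes and differed by at least 1.5-fold. Stard4 was -0.09 log2 in FAN -/- and 0.63 in FAN +/+ cells, a difference of -0.72. Ggps1 was -0.14 in FAN -/- and 0.51 in FAN +/+ cells, a difference of -0.65. Sqle was -0.39 in FAN -/- and 0.22 in FAN +/+ cells, a difference of -0.61. With 1 array per condition these differences were not tested. The other probe sets of Stard4 gave differences of -0.67 (above the floor on 2 arrays only) and -0.50, and those of Ggps1 above the floor gave -0.47, -0.36 and -0.21. The directions were not opposite in all of them. The Stard4 probe set with -0.67 was at 0.15 in FAN -/- and 0.82 in FAN +/+ cells. The Ggps1 probe set with -0.21 was at -0.25 in FAN -/- and -0.03 in FAN +/+ cells.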

How the results depend on the processing

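No paired analysis was possible because each condition has 1 array, and leaving out an array leaves the additive fit without residual degrees of freedom. Medians are called unchanged within 0.112 log2, the median posterior SD of limma. Within that, the median TNF response in FAN +/+ cells changed sign, to 0.014 after quantile normalization, 0.072 with the mean of all probe sets and 0.042 with second probe sets, against -0.018. The median genotype difference untreated was -0.194 with the mean of all probe sets and -0.18 with the second probe sets (24 genes). With TNF it was -0.477 without the 6 members with discordant probe sets (chosen after seeing the data). The 2 arrays whose genotype entry matches the title are TNF-treated FAN -/- and untreated FAN +/+ (also chosen then). Their difference mixes genotype with TNF, so it checks neither genotype comparison. Its median over members was -0.487, and 13 members were at least 1.5-fold lower. Members at least 1.5-fold lower untreated numbered 4 after quantile normalization (773 of 12206 genes) and 3 of 24 by second probe sets (330 of 5446 genes). With TNF they were 6 of 24 by second probe sets (292 of 5446 genes). In both treatments they were 3 with the floor at the 70th percentile, 8 after centring, 3 after quantile normalization and 3 by second probe sets, by which 16 of 24 were below 0 in both. All genes were not counted in both treatments under these settings. Members 2-fold lower untreated were 0 with the pseudocount, quantile normalization or the mean of probe sets. Members 1.5-fold apart with TNF in FAN +/+ cells were 0 after centring and by second probe sets, and by second probe sets 1 had a 1.5-fold lower response in FAN -/- cells. Members that fell in FAN -/- cells numbered 0 without a filter on dim genes or without the TNF term, and 3 with the floor at the 30th percentile (390 of 14836 genes). They were 8 with no floor (555 of 11817 genes), 9 with the pseudocount (567 of 11817) and 17 after centring (980 of 11799). The main fit gave 5 members and 434 of 11817 genes. Over all genes, 0 rose and 0 fell for either factor without the filter. Without the other factor 4 rose and 6 fell for genotype, and 0 and 0 for TNF. After centring, 532 rose and 980 fell for genotype, and 405 and 518 for TNF. For TNF 225 fell with the floor at the 70th percentile, 208 with no floor and 212 with the pseudocount. The adjusted p of Elovl6 ranged from 0.000885 to 0.317 over 10 alternatives, and that of Fdps, called in 5 of them, from 0.00785 to 0.344.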
